A study of Homo sapiens with 3 samples.

Results

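Keratin and keratin-associated genes were taken from the RefSeq records of human protein-coding genes as those whose symbol begins with KRT followed by a number, or with KRTAP followed by a number. This gave 149 of 20037 genes, made up of 29 type I keratins, 26 type II keratins and 94 keratin-associated proteins (KRTAP). All lie in 6 clusters, with 27 genes on chromosome 12, 62 on chromosome 17, 33 and 16 in separate stretches of chromosome 21, and 6 and 5 in separate stretches of chromosome 11. Chromatin immunoprecipitation followed by sequencing was carried out in wild-type THP1, an established line of leukaemic monocytes from human blood, treated for 24 h with the phorbol ester PMA, under which the cells differentiate towards macrophages. One library was made with an antibody to acetylated lysine 27 of histone H3 (H3K27ac) and another with an antibody to the deacetylase SIRT1. An input library with no antibody had the same treatment, and its signal was not analysed here. No untreated sample was analysed here, and since each antibody has a single library, no value has a replicate and no test was made.

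Keratins are the intermediate filament proteins of epithelial cells. Each filament is built from pairs of 1 type I and 1 type II chain, and the pair in use marks the kind of epithelium, such as KRT8 with KRT18 in simple epithelia, KRT5 with KRT14 in the basal layer of the epidermis and KRT1 with KRT10 above it. Hair keratins and the small cysteine-rich or glycine- and tyrosine-rich KRTAP proteins form the hair shaft. Keratins are widely used as markers that tell epithelial cells from other cells. H3K27ac marks active promoters and enhancers, while SIRT1 removes acetyl groups from histones and other proteins, which is why both maps were read at the same genes.

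The DNA just before the start of these genes looks unlike that of most genes, and 6 promoters are shown to let this be seen beside the peaks. KRT10 and KRTAP12-3 had an H3K27ac peak near the stop end of the gene, and KRT9, KRT74 and KRT82 had a SIRT1 peak at the start. LMNB2, the gene of a nuclear lamin and so also an intermediate filament gene, is shown as an acetylated contrast. Each run is the 250 bases before the RefSeq start (build GRCh38.p14), 5′ to 3′ on the strand of the gene. Capitals mark each CG pair and, where present, the letters TATAAA between 45 and 16 bases before the start.
KRT10 lies at chr17:40822615-40822864, minus strand, KRTAP12-3 at chr21:44657682-44657931, plus strand, and KRT9 at chr17:41572060-41572309, minus strand.
KRT74 lies at chr12:52573844-52574093, minus strand, KRT82 at chr12:52406336-52406585, minus strand, and LMNB2 at chr19:2456960-2457209, minus strand.
KRT10: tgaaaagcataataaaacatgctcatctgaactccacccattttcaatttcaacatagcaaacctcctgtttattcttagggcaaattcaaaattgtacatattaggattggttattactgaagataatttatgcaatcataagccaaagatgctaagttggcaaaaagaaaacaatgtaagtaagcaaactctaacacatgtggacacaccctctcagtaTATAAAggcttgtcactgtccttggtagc
KRTAP12-3: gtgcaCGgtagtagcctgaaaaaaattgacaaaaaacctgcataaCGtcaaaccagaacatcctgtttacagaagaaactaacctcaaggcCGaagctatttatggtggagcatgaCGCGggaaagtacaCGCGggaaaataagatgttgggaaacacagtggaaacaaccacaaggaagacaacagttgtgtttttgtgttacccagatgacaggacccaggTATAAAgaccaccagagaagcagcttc
KRT9: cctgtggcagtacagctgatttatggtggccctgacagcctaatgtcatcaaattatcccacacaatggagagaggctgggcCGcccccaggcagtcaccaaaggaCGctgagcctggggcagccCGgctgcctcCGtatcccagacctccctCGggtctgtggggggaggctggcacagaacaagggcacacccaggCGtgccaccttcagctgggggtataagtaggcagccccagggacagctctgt
KRT74: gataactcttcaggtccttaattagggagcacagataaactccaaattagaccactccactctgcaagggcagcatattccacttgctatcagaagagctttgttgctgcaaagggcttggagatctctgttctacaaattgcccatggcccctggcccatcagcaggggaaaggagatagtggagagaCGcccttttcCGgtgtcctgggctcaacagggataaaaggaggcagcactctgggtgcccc
KRT82: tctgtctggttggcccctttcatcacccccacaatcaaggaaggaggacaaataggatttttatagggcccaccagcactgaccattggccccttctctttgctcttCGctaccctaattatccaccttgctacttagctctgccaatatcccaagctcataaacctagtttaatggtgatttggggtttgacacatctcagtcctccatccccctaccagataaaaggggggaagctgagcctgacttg
LMNB2: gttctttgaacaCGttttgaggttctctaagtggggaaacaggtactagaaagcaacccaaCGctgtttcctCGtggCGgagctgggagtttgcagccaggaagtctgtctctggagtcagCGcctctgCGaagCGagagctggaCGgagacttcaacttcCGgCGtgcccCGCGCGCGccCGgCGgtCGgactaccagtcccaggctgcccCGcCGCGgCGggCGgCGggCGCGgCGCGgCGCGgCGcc
In these 250 bases KRT10 had 0 CG pairs, KRT82 had 1, KRT74 had 2, KRT9 had 6 and KRTAP12-3 had 7, against 30 in LMNB2. The letters TATAAA stood 29 bases before the start of KRT10 and 27 bases before that of KRTAP12-3. All 250 bases of LMNB2 lay inside an H3K27ac peak with its summit 403 bp from the start and a fold of 27.5, and none of the 5 keratin and KRTAP promoters shared a base with such a peak. Fold is the authors' value for the signal at the summit over the local background, with 1 added to both. The SIRT1 peaks covered all 250 bases at KRT9 and KRT74 and 152 of the 250 at KRT82.

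A listed start was matched for 114 of the 149 genes and for 15843 of all 20037. Over the 300 bases around it, 250 before and 50 after, the observed over expected number of CG pairs had a median of 0.166 in the 114 genes and 0.756 in all. It ranged from 0 to 0.607 among the 114, and KRTAP17-1 was the only one of them at 0.6 or more, a level reached by 64.2% of all genes. The letters TATAAA, read on the strand of the gene between 45 and 16 bases before the start, stood in 51 of 114 promoters (44.7%) against 3.76% of all. They stood in 13 of 20 type I, 3 of 14 type II and 35 of 80 KRTAP promoters. GGGCGG, the letters bound by Sp1 factors, stood on either strand in 5.26% against 57.4%. TGANTCA, the AP-1 letters, stood in 6.14% against 5.96%, and GAGGAA, part of the sequence bound by the macrophage factor PU.1, in 29.8% against 27.6%. These last 2 shares differed little from those of all promoters. A match of letters is a description and does not show binding.

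H3K27ac was found at few of these genes. A summit lay within 1 kb of either end of the record, called a gene end here, at 5 of 149 genes, or 3.36% (exact 95% binomial interval 1.1 to 7.66, counting error only). Over all protein-coding genes 53.0% were called by this rule. KRT7, KRT80, KRT10, KRT23 and KRTAP12-3 were the 5. Counting any base of a peak in the window in place of the summit gave 9 of 149, or 6.04%, against 56.7% of all genes, and added KRT13, KRT19, KRT78 and KRT79. At the listed starts, 0 of 114 genes had an H3K27ac summit within 1 kb (which allows up to 3.18% by the same interval), against 57.4% of the 15843. KRT7, KRT80 and KRT23 had no listed start, so they are not among the 114 and their starts were not read. By any base of a peak it was 2 of 114, KRT79 and KRTAP12-3, against 59.4%. The listed start of KRT79 itself lay inside a peak, one of the strongest of the clusters, with its summit 1324 bp before the start. In chromatin from a whole culture, fewer cells with a mark and less mark per cell cannot be told apart.

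**Figure D1:**
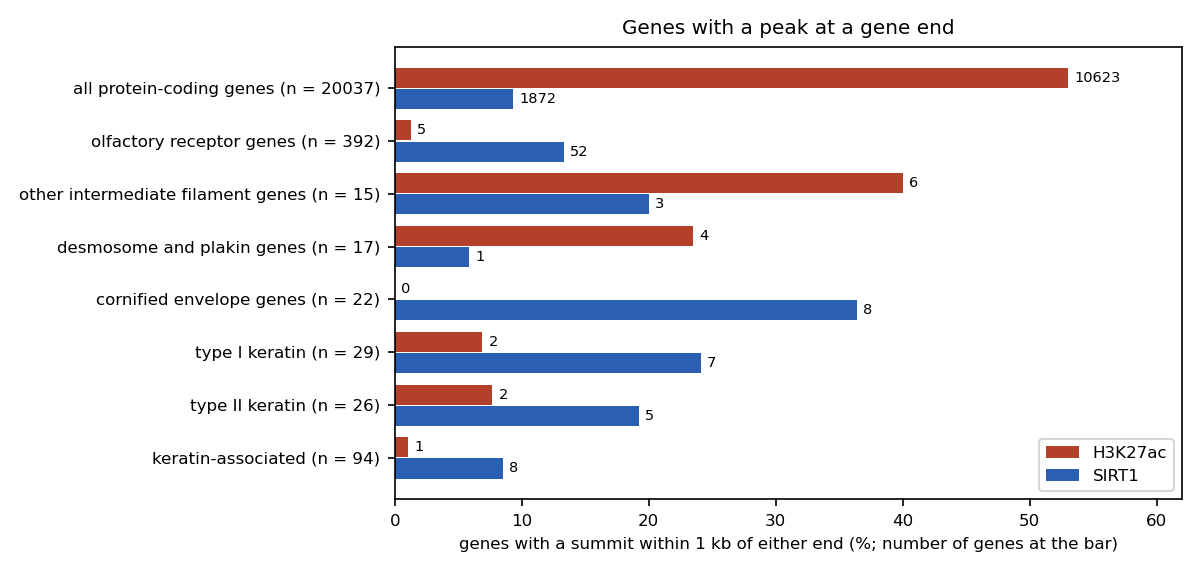
Share of genes with an H3K27ac (red) or SIRT1 (blue) summit within 1 kb of either gene end, in percent, for all protein-coding genes, the keratin and KRTAP families and other gene lists. The number at each bar counts genes, with 2 type I, 2 type II and 1 KRTAP gene carrying H3K27ac.

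The 5 genes with an H3K27ac summit at an end differed in the size and place of the peak. KRT10, the type I keratin of the upper epidermis (chr17:40818117-40822614), had the highest, a fold of 24.7 on 48 fragments at the summit, at chr17:40818324-40819538. Its summit lay inside the record, 760 bp from the stop end, 268 bp from an end of the non-coding RNA gene KRT10-AS1 and 3737 bp from the KRT10 start shown above. KRTAP12-3 (chr21:44657932-44658341) encodes a hair protein and lies inside the longer TSPEAR record (chr21:44497893-44711572). Its peak at chr21:44658322-44659392 had a fold of 9.29 on 17 fragments, with the summit 793 bp beyond its stop end and within TSPEAR. For these 2 genes the strand is in the table of starts, and both peaks were at the stop end.

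KRT23, KRT80 and KRT7 had the lower peaks. At KRT23, a type I keratin (chr17:40922700-40937646), the fold was 6.59 on 12 fragments, with the summit 610 bp outside the record and 599 bp from an end of the non-coding gene LOC105371777. At KRT80, a type II keratin (chr12:52168996-52192014), it was 5.47 on 14 fragments, 901 bp outside the record. At KRT7, a keratin of simple epithelia (chr12:52233243-52255853), it was 4.13 on 7 fragments, 292 bp inside the record. The median fold of the 5 peaks was 6.59, whereas the 10697 H3K27ac peaks at gene ends of any kind had a median of 14.7. Of these 5 genes KRT7 alone kept its call with a window of 500 bp, and it alone lost it when a −log10 q of at least 5 was required, since its own was 3.27. Just outside the window came KRT78 at 1094 bp, KRT13 at 1263 bp and KRT79 at 1324 bp.

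Apart from the peak of KRT10, the H3K27ac peaks of the clusters with a fold of at least 20 had their summits more than 1 kb from the gene ends, though 1 of them, between KRT79 and KRT78, was wide enough to cover an end of both genes. The 6 clusters spanned 2.84 Mb and held 25 peaks. This was 8.81 per Mb, against 16 per Mb over the chromosomes, each taken from its first to its last coding gene. The clusters differed, and that of chromosome 12 was not below its chromosome, at 19.1 per Mb against 18.1. The chromosome 17 cluster had 8.25 against 27, and those of chromosome 21 had 0 and 6.29 against 15.4. The smaller chromosome 11 cluster held 1 peak, a density near that of its chromosome, and the other held 0. Only 5 of the 25 had their summit within 1 kb of an end of one of these genes, 9 lay inside their records, and 5 had a fold of at least 20. The 140 kb from KRT80 to KRT86 held 11 peaks and 4 genes. Beyond the end of KRT80 that faces KRT7, a row of peaks reached folds of 19.9 at chr12:52196853-52201184 and 28.2 at chr12:52201439-52204333. The latter was the highest of all 25. Inside KRT7 a peak at chr12:52243705-52245038 had a fold of 20.9 on 74 fragments, 11300 bp from the nearer end of KRT7 and 490 bp from an end of KRT7-AS, a non-coding gene. Inside the record of the hair keratin KRT86 a peak had a fold of 9.84.

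Further along chromosome 12 a wide peak of 4368 bp spanned the gap between KRT79 and KRT78, which encode further type II keratins, at chr12:52834117-52838484. Its fold was 23.1 on 50 fragments, with the summit 1324 bp from the KRT79 start and 2169 bp from KRT78, and it covered the start of KRT79 and the near end of KRT78. On chromosome 17, peaks next to KRT13, a keratin of wet stratified epithelia, had folds of 26.3 at chr17:41497039-41498328 and 14.7 at chr17:41498558-41502161. The second reached into KRT13, and its summit was 1263 bp from the gene. Near KRT19, a small keratin of simple epithelia, a peak at chr17:41521089-41522764 had a fold of 11.8 and its summit 1552 bp from the gene. A smaller peak lay inside the record of KRT9, the keratin of palm and sole skin, with a fold of 3.61 on 6 fragments.

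**Figure D2:**
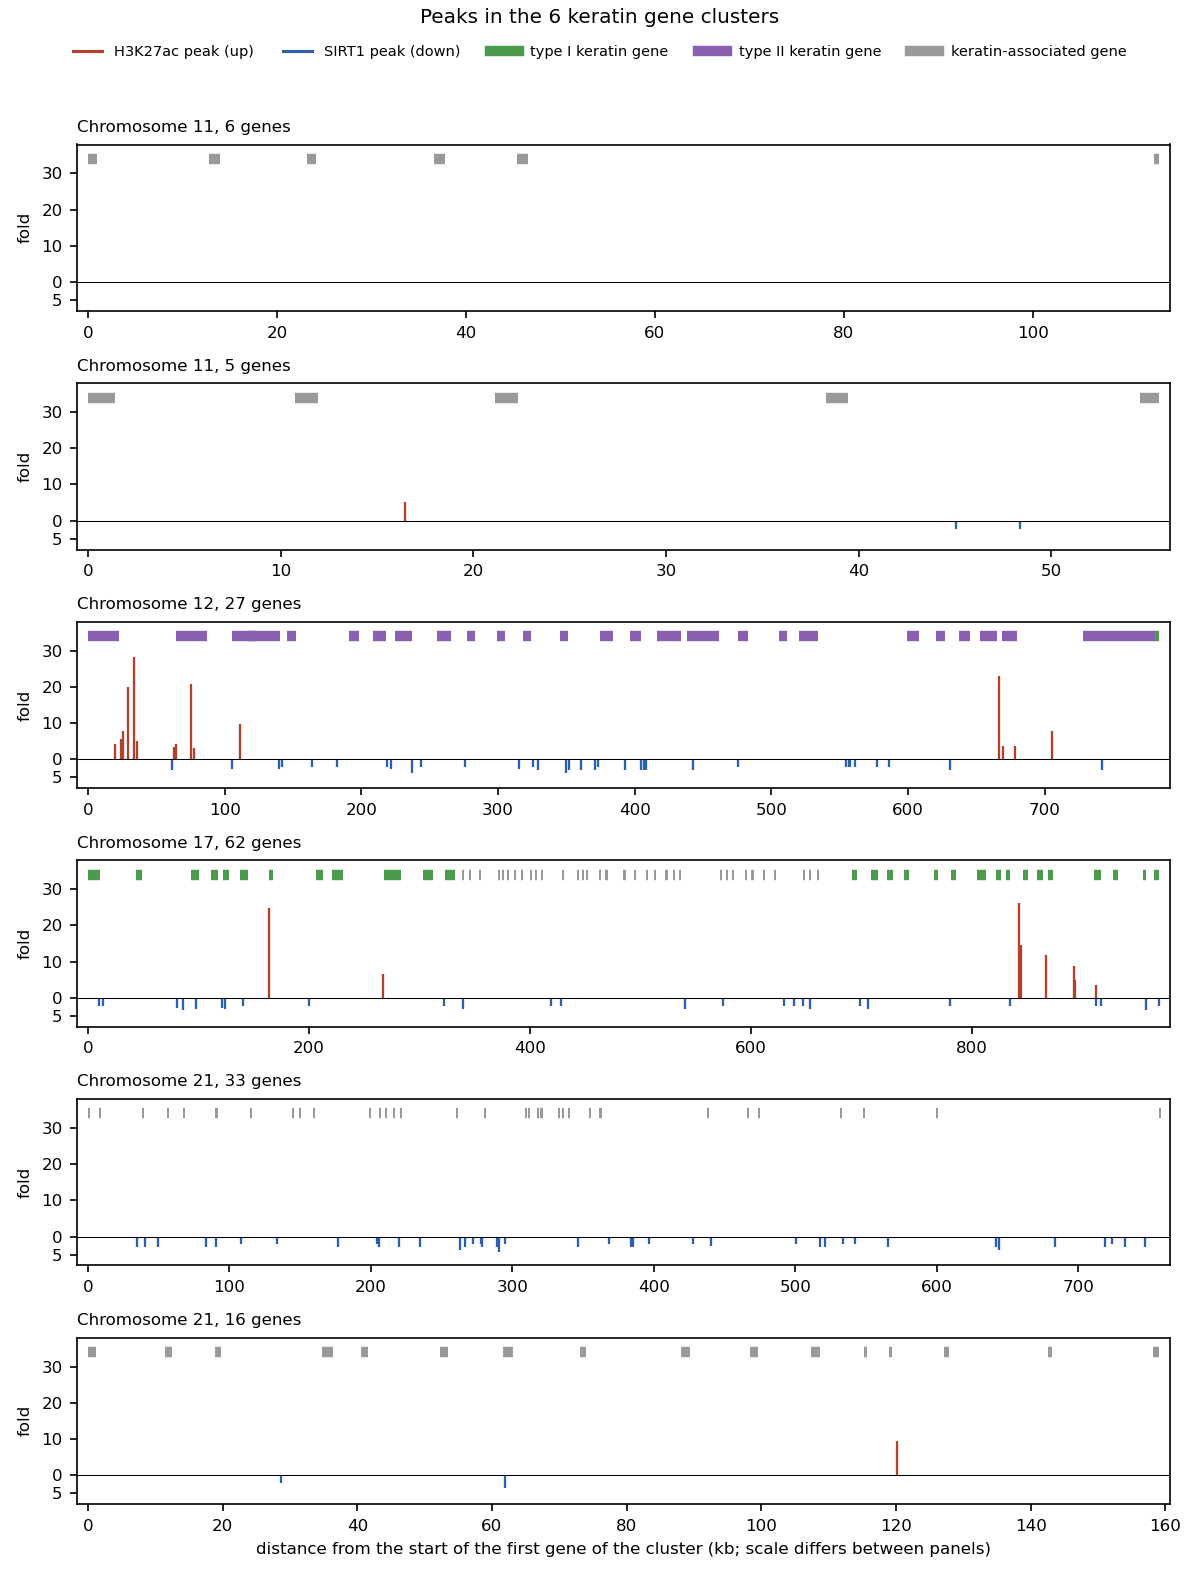
Peaks in the 6 clusters, with distance in kb from the first gene on the horizontal axis (its scale differs between panels) and the authors' fold on the vertical axis, H3K27ac upward and SIRT1 downward. Coloured blocks are gene records; the chromosome 12 cluster has 15 H3K27ac peaks, 11 of them between KRT80 and KRT86, and the chromosome 21 cluster of 33 genes has 0.

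Between these peaks lay long stretches with no H3K27ac summit. On chromosome 17 no summit was listed between 40922090 and 41498027, a stretch of 575.9 kb. It held 46 whole records, from KRT23 to KRT36, among them every KRTAP gene of that chromosome. Its lower border is the summit of the peak called at KRT23, 610 bp outside that record, so KRT23 is an exception among the 46. The chromosome 12 stretch ran from 52280050 to 52835635 (555.6 kb) and held 21 genes from KRT81 to KRT79, the epidermal KRT5, KRT1 and KRT2 included, though the wide peak at its upper border reached over the start of KRT79. On chromosome 21 all 33 genes from KRTAP24-1 to KRTAP19-8 lay in a stretch of 2003 kb, from 29656609 to 31659881. Over the genome 1072 stretches of at least 500 kb had no H3K27ac summit, with a median of 1 whole coding gene in each. Only 13 of them held 20 or more, and the 3 keratin stretches were among these, at ranks 3, 12 and 6 by number of genes. The nearest coding genes with H3K27ac at an end, outside the clusters, were SMARCE1, a chromatin remodelling gene 6847 bp beyond the chromosome 17 cluster, and EIF4B, a translation factor gene 53550 bp beyond that of chromosome 12. On chromosome 21 the nearest to the 33 genes were SOD1 at 621217 bp and BACH1 at 919415 bp.

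The distance from a gene end to the nearest H3K27ac summit had a median of 132111 bp in the 149 genes and 719 bp in all genes. It was over 50 kb for 103 of the 149 (69.1%), against 17.6% of all. By family the median was 36327 bp for type I keratins, 105821.5 bp for type II and 209172 bp for KRTAP genes, with type I ranging from 610 to 147199 bp and KRTAP from 793 to 986255 bp, so the families overlapped. KRT5 lay 234525 bp from the nearest summit, KRT1 155228 bp, KRT18 53733 bp, KRT20 36848 bp, KRT8 23113 bp and KRT14 14554 bp. The usual keratin pairs of simple, basal and upper epidermal layers thus each had at least 1 partner with no H3K27ac summit within 10 kb.

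**Figure D3:**
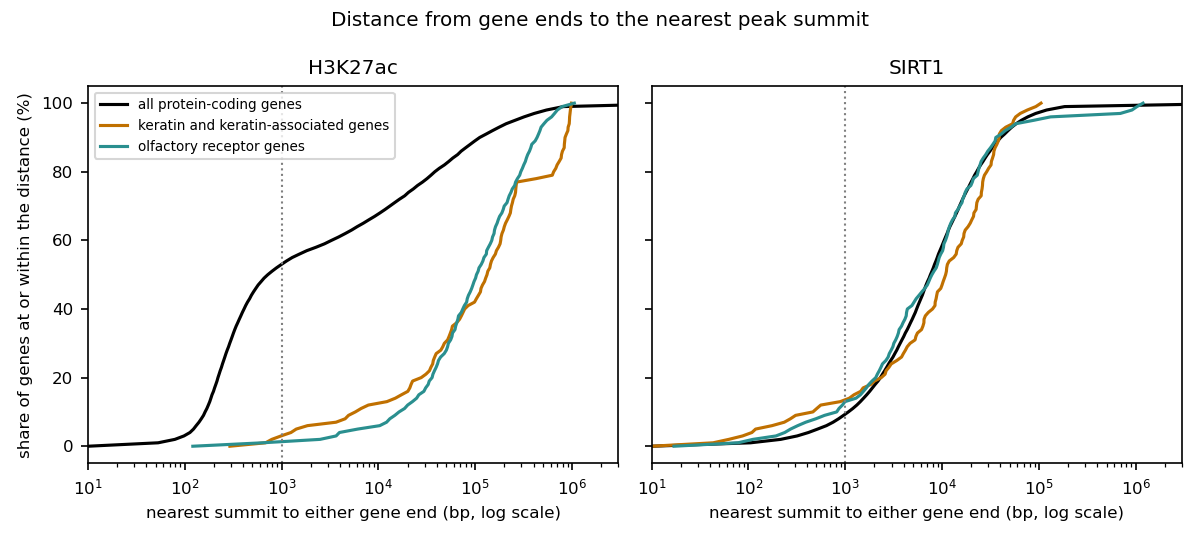
Share of genes, in percent, whose nearest H3K27ac (left) or SIRT1 (right) summit lies at or within the distance on the horizontal axis (bp, log scale); the dotted line is 1 kb. For H3K27ac the keratin and olfactory receptor curves lie far to the right of all genes (medians 132111, 102845 and 719 bp), and for SIRT1 the 3 curves lie close together (medians 10860, 7838 and 7567 bp).

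By role, H3K27ac reached an end of 1 of 5 simple epithelial keratins (KRT7), 1 of 9 keratins of differentiated stratified epithelia (KRT10) and 0 of 8 basal and wound keratins, the group of KRT5, KRT14, KRT16 and KRT17. It reached 0 of 17 hair keratins and 0 of 8 keratins of the inner root sheath, the layer that moulds the growing hair. Of 8 keratins outside these roles it reached 2, KRT80 and KRT23. These counts are by summit, and the share over all protein-coding genes was 53.0%. By any base of a peak it was 4 of 8 keratins outside these roles, with KRT78 and KRT79 added. It was 2 of 5 simple epithelial keratins (KRT19 added) and 2 of 9 of differentiated stratified epithelia (KRT13 added), against 56.7% of all genes. The other keratin roles stayed at 0. Among KRTAP genes H3K27ac reached 1 of 39 high-sulfur genes and 0 of 22 high-glycine-tyrosine genes. Of 32 ultrahigh-sulfur genes (KRTAP4, KRTAP5, KRTAP9 and KRTAP17) 0 had an H3K27ac or a SIRT1 summit at an end. KRTAP families hold near-identical copies; how reads with several equally good positions were treated is not given in the sources used here, and its part in these counts was not tested.

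The CpG-poor promoters and the low acetylation went together over all genes as well. Of all genes with a listed start and an observed over expected CG ratio under 0.4, 987 of 4282 had H3K27ac at a gene end. At 0.6 or more it was 7252 of 10170, or 71.3%. Among keratin and KRTAP genes under 0.4 it was 1 of 109, the one being KRT10. The 2 acetylated genes with a listed start stood at 0.0962 (KRT10) and 0.480 (KRTAP12-3), where the median of the 114 was 0.166. KRT10 was below that median, and only KRTAP17-1 at 0.607 was above KRTAP12-3. The part of CpG content in the low counts was not tested.

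**Figure D4:**
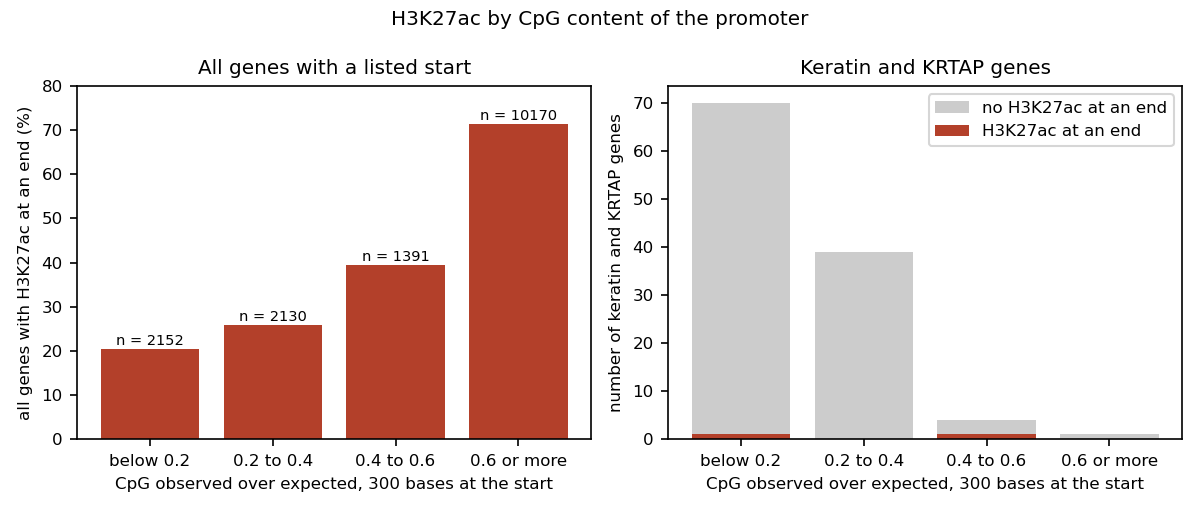
Left, share of all genes with H3K27ac at a gene end, in percent, by the observed over expected CG ratio of the 300 bases at the start, rising from 20.4% below 0.2 to 71.3% at 0.6 or more. Right, number of keratin and KRTAP genes in the same bands, 70, 39, 4 and 1, with those that had H3K27ac in red (1, 0, 1 and 0).

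The share of these genes with a SIRT1 peak was near that of other genes without H3K27ac. The number cannot be set against that of H3K27ac, since the SIRT1 list goes down to weaker peaks. With a fold of at least 4 it was 0 genes for SIRT1 (0.140% of all genes) and 5 for H3K27ac (51.3% of all genes). A SIRT1 summit lay within 1 kb of an end of 20 of 149 genes, or 13.4% (exact 95% binomial interval 8.40 to 20), against 9.34% of all genes. Among the 144 genes with no H3K27ac summit the share was 13.9%, against 12.7% of all 9414 such genes. At listed starts it was 10 of 114, or 8.77% (exact 95% binomial interval 4.29 to 15.5). This stood against 4.28% of all, just below the interval, and 7.67% of the 6757 genes with no H3K27ac summit at the start. By any base of a peak it was also 10 of 114, against 5.11% of all. Per Mb of gene end window there were 45.3 pairs of a gene and a peak (exact 95% Poisson interval 28.4 to 68.6). The value was 34.6 at other genes without H3K27ac and 25.1 at all genes. The interval lies above the value of all genes and includes that of other genes without H3K27ac. It holds counting error only and takes the pairs as independent. The genes lie in clusters, and KRT86 and KRT222 each had a summit at both ends, so no difference was tested. By any base of a peak, the count was 22 of 149 (14.8%), against 10.8% of all genes.

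No gene of the 149 had both marks at its ends, where 3.39% of all genes did by summits and 4.37% by any base. Of all genes with an H3K27ac summit 6.40% also had a SIRT1 summit, and of the 5 here it was 0. With a window of 2500 bp 10.4% of all genes had both, and of the 149 only KRT9 did. Its H3K27ac summit lay 1889 bp inside the stop end, and its SIRT1 summits lay 1571 bp inside the stop end and 63 bp before the start.

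The SIRT1 peaks at these genes rested on few fragments. Of 22 pairs of a gene and a peak, 7 had 2 fragments at the summit, 11 had 3 and 4 had 4. At gene ends of any kind 39.6% of peaks had 2, 43.9% had 3 and 16.5% had 4 or more, so the split was much the same. The largest −log10 q among the 22 was 0.175, so none reached a q of 0.05. In the whole SIRT1 list only 136 of 95517 peaks did, so this was not particular to these genes. With so few fragments fold took few values, from 2.20 to 3.67.

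The highest SIRT1 folds were at KRT82, a hair keratin, and KRTAP10-7, a high-sulfur hair protein, each 3.67 on 4 fragments. The KRT82 summit lay 270 bp inside the start, with the peak at chr12:52405990-52406487, and that of KRTAP10-7 340 bp inside the start at chr21:44600698-44601030. KRT16, a keratin induced in wounded skin, followed at 3.47 on 4 fragments, with the summit 10 bp from an end of its record at chr17:41612589-41612889. KRT27, an inner root sheath keratin, also had 4 fragments, but on a background of 0.878 in place of 0.362 to 0.549 at the others, which gave a fold of 2.66.

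A fold of 2.94 on 3 fragments was found at 7 genes. KRT5, the basal type II keratin, had its summit 291 bp before the start, and KRT74, of the inner root sheath, 109 bp before it. KRTAP3-3 had it 271 bp and KRTAP16-1 504 bp inside the start, and KRTAP19-2 53 bp inside an end. KRTAP19-5 and KRTAP19-7 had theirs 515 and 820 bp beyond the stop end. KRTAP13-2 and KRT222 reached 2.78 and KRT86 2.58, and KRT222 and KRT86 had a SIRT1 summit at each end. The other 6 genes, KRT2, KRT9, KRT17, KRT36, KRT38 and KRTAP29-1, had 2.20 on 2 fragments, with summits 34, 63, 102, 75, 571 and 131 bp from an end. Just outside the window came KRT40 at 1098 bp, KRT84 at 1099 bp and KRTAP4-7 at 1181 bp. KRT1, KRT10, KRT14 and KRT19 had no SIRT1 summit within 10 kb of an end.

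By role, SIRT1 summits were at an end of 3 of 8 basal and wound keratins (KRT5, KRT16 and KRT17), 4 of 17 hair keratins and 2 of 8 inner root sheath keratins. They were at 2 of 9 keratins of differentiated stratified epithelia, 0 of 5 simple epithelial keratins and 1 of 8 keratins outside these roles (KRT222). The share was 9.34% of all genes and 12.7% of all genes with no H3K27ac summit at an end. Type I keratins had 7 of 29 and type II 5 of 26, while KRTAP genes had 8 of 94. KRTAP records are short, with a median of 828.5 bp, so their 2 windows overlap and cover a mean of 2823 bp against 4002 bp for keratins. Per Mb of window the values were 68.9 (29.8 to 136, exact 95% Poisson interval) for type I, 57.7 (21.2 to 126) for type II and 30.1 (13.0 to 59.4) for KRTAP genes, and the intervals overlapped.

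Along the clusters SIRT1 peaks were spread through the stretches that H3K27ac left free. The 6 clusters held 104 SIRT1 peaks, or 36.6 per Mb, against 31.3 per Mb over the chromosomes. Of these 48 had 2 fragments, 46 had 3, 9 had 4 and 1 had 5 or more. None reached a q of 0.05, a level met by 136 of all 95517 SIRT1 peaks. The chromosome 21 cluster of 33 KRTAP genes had 40 of them and 0 H3K27ac peaks. Its density was 52.8 per Mb against 27.9 for the chromosome, and it held the highest fold, 4.17, at a peak 10858 bp from KRTAP19-7. Chromosome 12 had 42.1 per Mb and chromosome 17 had 27.8. The other chromosome 21 cluster, of KRTAP10 and KRTAP12 genes, had 12.6 per Mb, and the chromosome 11 clusters of KRTAP5 genes had 36.0 and 0. Across the 1071 long stretches without H3K27ac that held a SIRT1 peak the median was 36.6 per Mb, with the middle of the range from 28.1 to 46.5 (lower to upper quartile). The keratin stretches had 49.9 on chromosome 21, 54.0 on chromosome 12 and 24.3 on chromosome 17, on both sides of it.

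Other gene groups were read in the same way to place these counts, with lists chosen when earlier results of these data were known. Olfactory receptor genes, another large clustered family, had an H3K27ac summit at 5 of 392 (1.28%) and a SIRT1 summit at 52 (13.3%), close to the 3.36% and 13.4% of the keratin and KRTAP genes; no test was made. Of 15 other intermediate filament genes 6 (40.0%) had H3K27ac, below the 53.0% of all genes. VIM, the filament gene of mesenchymal and blood cells, led at a fold of 49.6, with the nuclear lamin genes LMNB2 at 27.5 and LMNB1 at 20.8. BFSP1 followed at 5.58. SIRT1 summits lay at NEFL (3.10), DES (2.94) and NEFM (2.41).

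Genes whose products work with keratins were read beside the shares of all genes, 53.0% for H3K27ac and 9.34% for SIRT1. Of 17 desmosome and plakin genes, which anchor keratin filaments, 4 (23.5%) had H3K27ac: DST at 17.2, DSC2 at 12.2, PLEC at 9.31 and PERP at 4.73. JUP had a SIRT1 summit at a fold of 2.20. Of 22 genes of the cornified envelope, the outer shell of dead skin cells, 0 had H3K27ac and 8 (36.4%) had a SIRT1 summit. The SIRT1 share was 12.7% of all genes with no H3K27ac summit at an end. No test was made of the difference. LCE2A had a fold of 3.67, LCE1B 3.37, LCE1A 3.23, TGM1 2.94, IVL 2.92, FLG2 2.87, SPRR1A 2.85 and LCE3A 2.18, on 2 to 4 fragments each.

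Among macrophage markers, an H3K27ac summit was at an end of 7 of 12 (58.3%, against 53.0% of all genes), led by SPI1 (109), CD68 (42.0), CTSB (40.6) and ITGAM (13.9), and by any base of a peak it was 10 of 12. SIRT1 summits were at 0 of 12. Of 12 epithelial markers 4 had H3K27ac, CLDN7 at 8.71, ITGB4 at 5.72, OVOL1 at 5.66 and LAMB3 at 5.41, and EPCAM, CDH1 and TP63 had none. ELF3 had a SIRT1 summit at a fold of 2.89. Of 12 hair follicle markers DSC2 (12.2, the desmosome gene above) and S100A3 (4.40) had H3K27ac and FOXN1 and PADI3 (2.20 each) had SIRT1.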

How the data were processed

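Peak lists were used for the H3K27ac and the SIRT1 library. The submitters' processing notes name MACS2, deepTools and, as genome build, hg38. Which versions, aligner and control sample served is not given in the sources used here. The fold of each peak, a ratio to the local background, and its −log10 p and −log10 q were deposited by the authors. The deposited score is 10 times −log10 q or p and was not used further. The smallest −log10 q was 1.30 for H3K27ac, whereas for SIRT1 the smallest −log10 p was 2.00 and −log10 q was 0 for 86.2% of peaks, so folds were compared within a list only.

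Chromosomes 1 to 22, X and Y were used, with 48735 H3K27ac and 95517 SIRT1 peaks. Sequencing depth is unknown, so precision is given as counting intervals only. Fragments at the summit were recovered from fold and −log10 p, with 1 whole-number solution for 99.977% of H3K27ac and 99.997% of SIRT1 peaks. On 2000 simulated peaks per list 100% came back right. The simulated peaks were made with the same formulas, so this checks the inversion and not the deposited values. Gene records, starts and promoter sequences came from RefSeq (GRCh38.p14). A gene was called when a summit lay within 1 kb of either end. Genes were joined into clusters within 1 Mb.

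The genes and lists were chosen with earlier results of these data known. The rule for named genes took every gene with H3K27ac at an end, the 15 with the highest SIRT1 fold there, the 3 nearest outside each window, KRT1, KRT5, KRT10, KRT14 and KRT19, the gene nearest to each such peak, and of each list up to 4 by H3K27ac fold and any with SIRT1. The 5 further genes with SIRT1, tied at the lowest fold, are named as well. One gene of the marker lists is not reported here. Further peaks were picked for naming with their values in view. Alternatives were windows of 500 and 2500 bp, any base of a peak, starts only, whole records, stricter peaks, nearest end only, and other cluster borders; those of at least 4 fragments and of any base at starts were chosen after seeing the data. Scripts ran in Python 3.11.15 with scipy 1.17.1, pandas 2.3.3, matplotlib 3.10.9 and numpy 2.4.6.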

Additional observations from a re-analysis of the deposited data

How the results depend on the processing

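In every setting run, the share of keratin and KRTAP genes with H3K27ac stayed below that of all genes. The 5 genes with H3K27ac at an end became 1 with a window of 500 bp (all genes 44.6%), 10 with 2500 bp (58.5%), 9 with any base of the peak (56.7%), 0 of 114 with listed starts only (57.4%) and 8 with whole records and 1 kb on both sides (63.7%). By any base of the peak at listed starts, a setting chosen after seeing the data, it was 2 of 114 (59.4%). KRT7, KRT80 and KRT23 had no listed start and could not count among the 114. The 20 genes with SIRT1 became 16 with 500 bp (10.7% against 4.83% of all genes) and 31 with 2500 bp (20.8% against 21.7%). With starts only they became 10 of 114, by summit (8.77% against 4.28%) or any base (8.77% against 5.11%). With a fold of at least 4 they became 0, against 0.140% of all genes. With a −log10 q of at least 5 they became 0, and so did all genes. At least 4 fragments, a setting also chosen after seeing the data, left 4 (2.68% against 1.61%). Whole records gave 24 with SIRT1, or 16.1%, against 52.3% of all genes, whose records are longer (median 24115 bp against 1149 bp). The 0 genes with both became 1 with 2500 bp (KRT9, 0.671% against 10.4% of all genes). With whole records they became 2 (KRT86 and KRT9, 1.34% against 35.2%). A margin of 100 kb around the clusters gave 51 H3K27ac peaks in place of 25, or 12.6 per Mb. A fold of at least 4 left 1 SIRT1 peak of 104, or 0.352 per Mb against 0.5 over the chromosomes. No paired analysis was possible because each antibody had 1 library. SIRT1 peaks of 2 to 4 fragments limit what can be read from single genes.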
